A study of Homo sapiens with 7 samples.

Results

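ESR1 (ENSG00000091831.25_9), the gene of estrogen receptor alpha, was examined for the chromatin contacts of its start sites in 3 cancer cell lines. Contacts were measured by HiChIP for acetylation of lysine 27 of histone H3 (H3K27ac), an assay that captures pairs of DNA fragments lying close in space where at least 1 fragment carries a mark of active promoters and enhancers. A loop is a pair of different anchors on 1 chromosome joined by read pairs, and a loop belonged to ESR1 when an anchor overlapped a window of 500 bp centred on any of the 12 annotated start sites of the gene. By this rule, 67 of 354783 loops were chosen. T-47D had 32 of its 42027 loops at ESR1, Ishikawa 33 of 163530 and LNCaP 2 of 149226. The rule used position alone, with no read pair count.

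T-47D is a breast ductal carcinoma line (1 sample), Ishikawa an endometrial adenocarcinoma line (4 samples) and LNCaP a prostate carcinoma line (2 samples). Of the Ishikawa samples, 2 were given 10 nM 17beta-estradiol (E2) and 2 the vehicle DMSO, each for 1 h. All lines grew in RPMI medium with serum, and no treatment is named for T-47D or LNCaP. The study's methods moved cells to medium depleted of hormones for some days ahead of estrogen induction, without saying which HiChIP samples this covers. DMSO and E2 loops were combined by the authors in 1 list, so the treatments could not be compared. Chromatin of Ishikawa was cut with DpnII and that of T-47D and LNCaP with MboI, enzymes that both cut at GATC, and Ishikawa was sonicated on a different instrument. Ishikawa was also sequenced on another instrument, with shorter reads and to a greater depth per sample. Between Ishikawa and either other line, cell line, library preparation and sequencing therefore cannot be told apart. T-47D and LNCaP shared enzyme, sonication and sequencing. The genotype of the lines and their copy number at ESR1 were not analysed here.

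Estrogen receptor alpha is a nuclear receptor that binds DNA when it holds estrogen and recruits coactivators to enhancers. It is the defining transcription factor of luminal breast cancer and the main mediator of estrogen action in the endometrium. The gene has several alternative promoters far apart, which give rise to messenger RNAs that differ in their first exons and share most of the coding sequence. H3K27ac marks enhancers and promoters in use, and a loop reports contact, not the direction or the effect of regulation.

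On hg19 (GRCh37), ESR1 occupies chr6:151977826-152450754 on the plus strand, and its 12 start sites fell into 6 regions. The first start region is a single site at 151977826, of a transcript annotated without a coding sequence, 151 kb upstream of the canonical site. The second is a single site at 152011631, of 2 transcripts, 117 kb upstream of it. The main start region holds 7 sites from 152125566 to 152130242, among them the canonical site at 152128817. The other three are single sites within the gene, at 152201792, 152257265 and 152265307.

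The reference sequences that carry the comparison are shown first, because the lines differed in which start region made most contacts. Each of the next 3 sequences is the 250 bases upstream of a start site, from the plus strand of GRCh37 and outside every annotated exon. Capitals mark any of 7 motifs searched on both strands: the estrogen response element GGTCANNNTGACC, its repeated core GGTCA, the forkhead motif TGTTTAC, the GATA factor motif AGATAA, the TFAP2 motif GCCNNNGGC, the AP-1 motif TGANTCA and the SP/KLF motif GGGCGG.
First start region, chr6:151977576-151977825: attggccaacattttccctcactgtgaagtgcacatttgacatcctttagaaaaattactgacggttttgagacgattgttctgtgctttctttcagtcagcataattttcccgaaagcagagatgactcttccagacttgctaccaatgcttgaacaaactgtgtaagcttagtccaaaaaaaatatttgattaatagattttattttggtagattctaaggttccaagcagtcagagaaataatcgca
Second start region, chr6:152011381-152011630: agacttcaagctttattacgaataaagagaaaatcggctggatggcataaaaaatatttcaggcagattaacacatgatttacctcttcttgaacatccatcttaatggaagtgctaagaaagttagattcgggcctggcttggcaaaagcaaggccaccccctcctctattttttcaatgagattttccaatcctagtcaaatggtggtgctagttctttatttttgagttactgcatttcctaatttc
Main start region, upstream of the site at 152128331, chr6:152128081-152128330: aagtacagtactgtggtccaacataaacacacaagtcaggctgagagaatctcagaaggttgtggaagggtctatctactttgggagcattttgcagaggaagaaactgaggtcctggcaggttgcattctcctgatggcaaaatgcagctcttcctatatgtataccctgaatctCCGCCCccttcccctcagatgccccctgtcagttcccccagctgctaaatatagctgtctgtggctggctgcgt
These windows held no match to 6 of the 7 motifs, and the single capital run, in the main start region, is an SP/KLF motif read on the minus strand.

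Of distal partners, 2 are shown for where they recur. For each, the 300 bases with the most motif matches are printed, from the plus strand of GRCh37, with capitals as above. The first lies in the partner of the T-47D loop with the most read pairs. It falls inside the partner of the Ishikawa loop with the most read pairs. The second lies in the T-47D partner that joined 3 ESR1 anchors and overlapped an Ishikawa partner.
Partner 127 kb upstream of the canonical site, chr6:152001674-152001973: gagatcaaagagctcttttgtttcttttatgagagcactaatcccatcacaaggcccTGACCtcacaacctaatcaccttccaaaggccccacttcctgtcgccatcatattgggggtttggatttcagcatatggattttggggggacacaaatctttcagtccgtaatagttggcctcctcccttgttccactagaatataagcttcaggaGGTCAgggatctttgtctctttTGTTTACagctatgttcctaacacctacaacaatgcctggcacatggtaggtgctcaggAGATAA
Partner 174 kb upstream of the canonical site, chr6:151954930-151955229: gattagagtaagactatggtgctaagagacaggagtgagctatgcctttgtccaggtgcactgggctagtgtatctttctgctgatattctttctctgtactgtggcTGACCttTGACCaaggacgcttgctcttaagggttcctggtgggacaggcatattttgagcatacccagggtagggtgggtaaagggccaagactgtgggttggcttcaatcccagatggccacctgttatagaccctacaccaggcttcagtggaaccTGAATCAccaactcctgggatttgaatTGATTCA
The first window held a forkhead and a GATA factor motif, and the GGTCA core was present in both windows. The second held 2 matches to TGANTCA, the AP-1 pattern searched, which allows any middle base, here A and T. A match is a description of letters, not evidence of binding.

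ESR1 was among the more contacted genes in T-47D and Ishikawa and had few contacts in LNCaP. Its loops held 55.5 of every 100000 read pairs of the T-47D list (95% exact Poisson interval 48.0 to 63.9) and 28.7 of the Ishikawa list (25.6 to 32.2). In LNCaP they held 0.443 (0.191 to 0.873), from 8 read pairs. By read pairs of promoter loops, ESR1 ranked 311 of 20175 protein-coding genes for T-47D, 176 for Ishikawa and 10701 for LNCaP. These ranks sum over all start sites of a gene and are not scaled to their number or to anchor width. Each line had 1 list, so no replicate error and no p-value can be given, and every interval covers counting error only. A pair of anchors that did not reach 3 read pairs was left out by the authors, so a value of 0 stands for no loop at or above that support, which for Ishikawa applied to each part.

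The share of read pairs was 1.93 times as high in T-47D as in Ishikawa (1.60 to 2.32). The median gene also had a higher share in T-47D than in Ishikawa, and the ratio of ESR1 sat below that median. Among 14165 protein-coding genes with a promoter loop in either list, the median log2 ratio was 1.44, that of ESR1 was 0.95, and 45.3% of genes were lower. A ratio of 2 or more in favour of T-47D was found for 54.3% of these genes, and a ratio of 2 or more in favour of Ishikawa for 23.0%. ESR1 reached neither. A gene at 0 in T-47D was counted as 3 read pairs there, a convention, as anchor pairs under the minimum could hold more in sum. By that rule alone, 495 such genes were counted in favour of T-47D. Without them, 50.8% of genes were at least 2-fold higher in T-47D. With every gene at 0 in T-47D placed lowest, the median was 1.10 and 48.8% of genes were below ESR1. The ratio turned below 1 with the canonical start site alone (0.737) and at a minimum of 10 read pairs (0.844), so its direction depends on which sites and loops are counted. Against LNCaP, the share was 125 times as high in T-47D (62.3 to 294) and 64.9 times as high in Ishikawa (32.5 to 152).

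**Figure D1:**
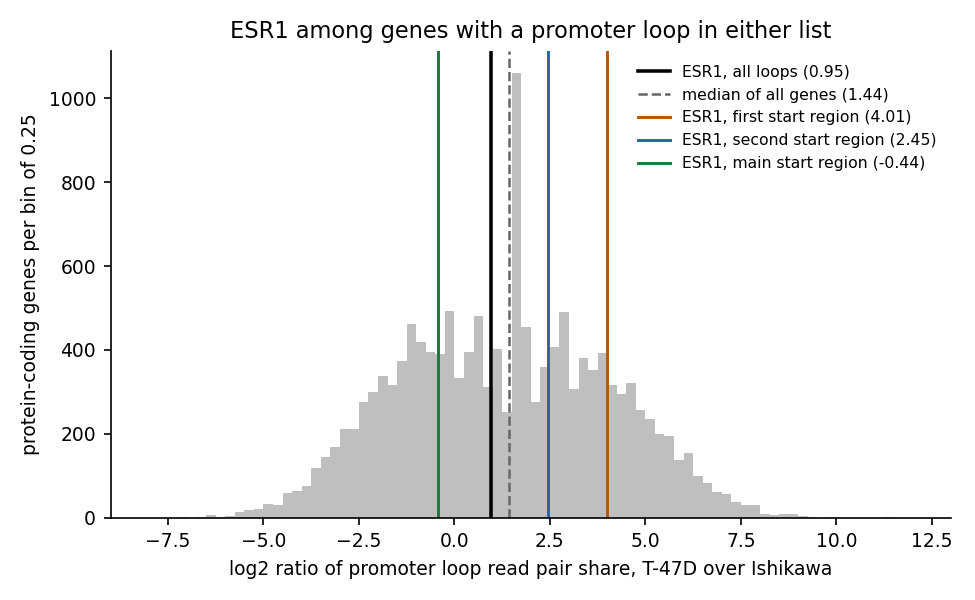
Histogram of the log2 ratio of promoter loop read pair share, T-47D over Ishikawa, for 14165 protein-coding genes with a promoter loop in either list (a list under 3 read pairs counted as 3). The solid lines give ESR1 over all its loops (0.95) and for its first (4.01), second (2.45) and main (-0.44) start regions, the dashed line the median of all genes (1.44), and the bar rising beside that median holds the 772 genes at or under 3 read pairs in both lists, 412 of them at 0 in T-47D.

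The ratio for the whole gene combined different values at its start regions. In T-47D the second start region was the most contacted, with 114 of 195 read pairs (58.5%, Wilson interval 51.4 to 65.1) in 16 loops. In Ishikawa the main start region was the most contacted, with 213 of 299 read pairs (71.2%, 65.9 to 76.1) in 22 loops. The second start region held 62 read pairs in 5 loops in Ishikawa (20.7%, 16.5 to 25.7), and the main start region held 53 in 10 loops in T-47D (27.2%, 21.4 to 33.8). A loop that joined both regions was counted in each. The intervals of the lines did not overlap at either region.

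The first start region held 38 read pairs in 8 loops in T-47D (19.5%, 14.5 to 25.6) and 7 read pairs in 2 loops in Ishikawa (2.34%, 1.14 to 4.75). The start sites inside the gene went the other way. The fifth start region held 18 read pairs in 2 loops and the sixth held 35 in 5 loops in Ishikawa, where a loop of 14 read pairs joined both. T-47D had no anchor over them, and the fourth had none in any list. In LNCaP both loops started from the second start region, with 5 and 3 read pairs, and no anchor lay over the main start region.

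**Figure D2:**
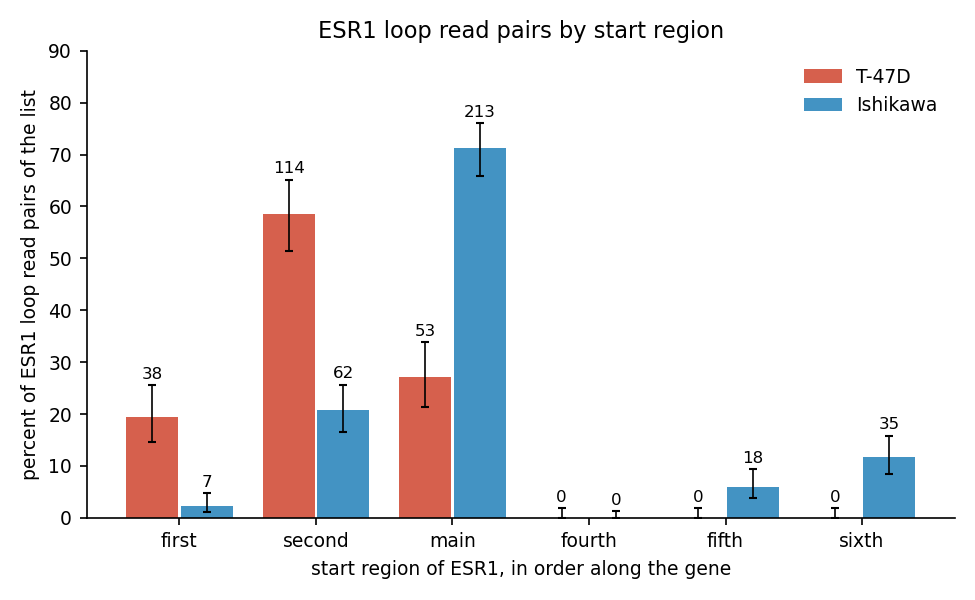
Percent of the ESR1 loop read pairs of T-47D and Ishikawa (vertical axis) at each of the 6 start regions in order along the gene, with 95% Wilson intervals that cover counting error only and the read pairs printed above each bar. The second start region leads in T-47D (114 read pairs) and the main start region in Ishikawa (213 read pairs); a loop between 2 start regions counts in both.

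Set against all read pairs of each list, the second start region had a share 5.45 times as high in T-47D as in Ishikawa (3.96 to 7.54), and the first start region 16.1 times as high (7.09 to 42.7). The main start region had 0.737 times the share (0.535 to 1.00). Against a ratio of 1, the interval of the main start region reached almost to 1, whereas those of the upstream regions did not approach it. In log2, the first, second and main start regions were at 4.01, 2.45 and -0.44. The median over all genes was 1.44, each gene taken with all its start sites.

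The anchors themselves differed in width, which bears on what each list can resolve. The Ishikawa anchor over the main start region spanned 23.8 kb (chr6:152119764-152143515), and 99.6% of Ishikawa anchors had fewer partners than its 22. The T-47D anchor there spanned 3.06 kb (chr6:152127818-152130877) and had 10 partners, and the site at 152125566 lay outside it. Over the second start region, the anchors spanned 5.34 kb with 16 partners in T-47D, and 8.83 kb with 5 partners in Ishikawa and 3.38 kb with 2 partners in LNCaP. A T-47D loop of 12 read pairs from the main start region to an intron 5.94 kb downstream lay wholly within the wide Ishikawa anchor, so it could not be seen as a loop there. Without it, the main start region held 22.4% of the T-47D read pairs and the second start region 62.3%. Between the second and main start regions, the one with more read pairs also had the wider anchor, in T-47D and in Ishikawa. Read pairs were not scaled to anchor width, and the part of width in the contrast between lines was not tested.

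In T-47D, contacts of the second start region concentrated on the stretch of intron between it and the first start region. The loop with the most read pairs joined the second start region to chr6:152001260-152002869, an ESR1 intron 9.34 kb away, with 21 read pairs. Further partners in this stretch lay at 151979979, 151989285 and 151995846, with 10, 10 and 9 read pairs to the second start region. The partner at 151979979 also joined the first start region with 7 read pairs and the main start region with 8. On the other side of the second start region, an intron at chr6:152036336-152038652 was joined to it with 11 read pairs.

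T-47D contacts also reached past the 5' end of the gene. An intergenic partner at chr6:151953736-151955236 was joined to the first, second and main start regions with 8, 10 and 3 read pairs. A pair of partners near the 3' end of CCDC170, at 151935987 and 151938713, over exons of that gene, joined the same 3 start regions with 4 to 6 read pairs each. Of 16 distal partners in T-47D, 5 were joined to 3 ESR1 anchors, 4 to 2 anchors and 7 to 1 anchor, and the 5 most connected held 87 read pairs. In Ishikawa, 2 of 21 distal partners were joined to 3 ESR1 anchors, 5 to 2 and 14 to 1. Loops between ESR1 start regions were few in both lines: the second and main start regions were joined by 7 read pairs in T-47D against 18 in Ishikawa.

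In Ishikawa, contacts of the main start region spread over the intron that separates it from the second. The loop with the most read pairs joined it to chr6:151995849-152006675, 130 kb upstream and beyond the second start region, with 35 read pairs, and this partner was joined to the second start region with 24. The next joined it to chr6:152088951-152098317, 38.0 kb upstream, with 28 read pairs. Partners at 152080493, 152100989 and 152111661 held 14 read pairs each, and a partner at 152061512 held 12 to the main and 11 to the second start region. None of these 5 partners overlapped an anchor of T-47D. Downstream, the loop of the main start region to a distal partner with the most read pairs reached 152152706, with 10. The partner at 152221212 held 16 in all, 7 to the main and 9 to the sixth start region.

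**Figure D3:**
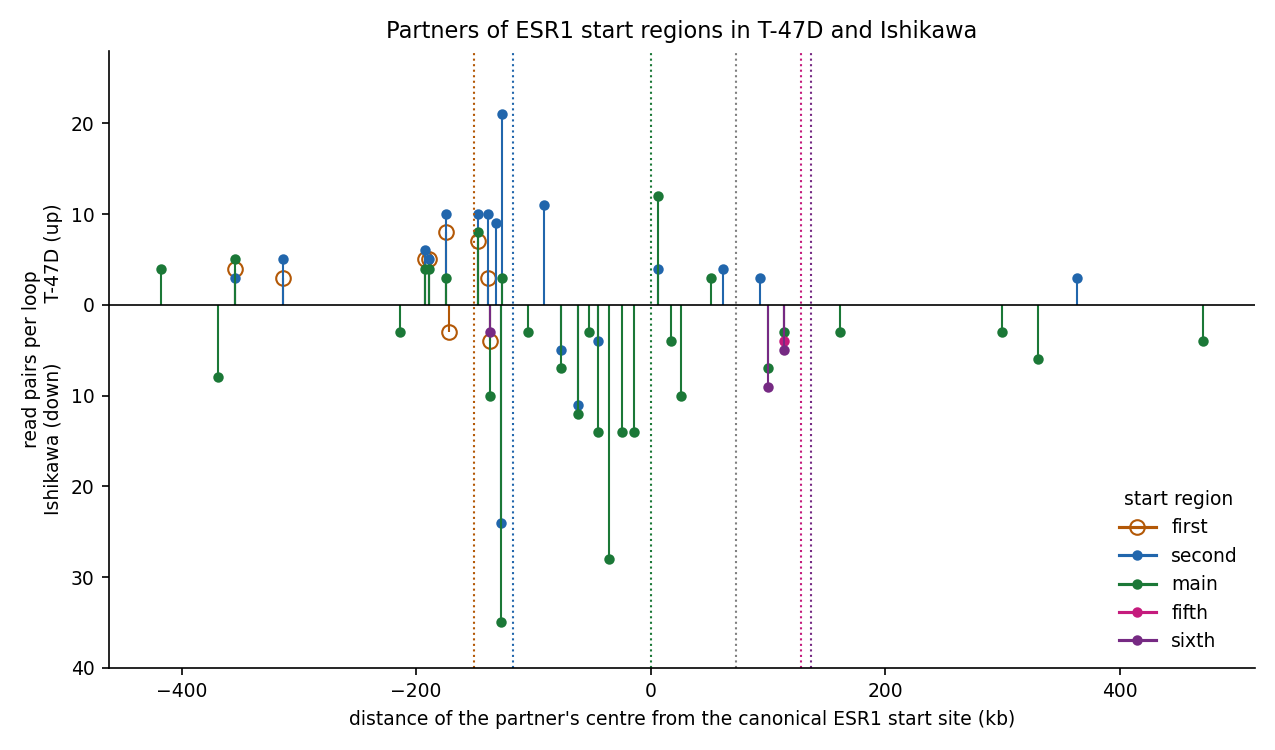
Distal partners of ESR1 by distance of their centre from the canonical start site in kb (horizontal axis) and read pairs of the loop (vertical axis), T-47D upward and Ishikawa downward, coloured by the start region they were joined to, with dotted lines at the 6 start regions. T-47D loops stand mostly upstream of the second start region, led by 21 read pairs. Ishikawa loops also fill the interval from there to the canonical site, led by 28 read pairs, and the Ishikawa loop of 35 stands upstream of the second start region.

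Counted by where the partner lies, the interval between the second and main start regions (114 kb) held 8 distal partners with 115 of 263 read pairs in Ishikawa (43.7%, 37.9 to 49.8). In T-47D it held 1 partner with 11 of 185 read pairs (5.95%, 3.35 to 10.3), and this was the only anchor of any T-47D loop there. The megabase before the gene held 6 partners with 74 read pairs in T-47D (40.0%, 33.2 to 47.2) and 3 partners with 14 read pairs in Ishikawa (5.32%, 3.20 to 8.74). T-47D had 7 anchors of any loop in that megabase, and Ishikawa had 55. The 33.8 kb between the first and second start regions held 38.4% of distal read pairs in T-47D (31.7 to 45.6) and 28.9% in Ishikawa (23.8 to 34.6), whose intervals overlapped. After the main start region within the gene, the values were 14.1% (9.77 to 19.8) and 18.3% (14.1 to 23.4), which also overlapped.

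The distance from the ESR1 anchor to its partner had a median of 96.3 kb for T-47D, 64.7 kb for Ishikawa and 132 kb for LNCaP, beside 85.8, 37.0 and 113 kb over all loops of each list. At a minimum of 5 read pairs the T-47D median fell to 38.2 kb and that of Ishikawa to 47.3 kb, so the order of the lines depends on the weakest loops. Loops at 3 read pairs numbered 9 of the 32 T-47D loops, 8 of the 33 Ishikawa loops and 1 of the 2 LNCaP loops.

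The Ishikawa list is made of 4 separately sorted parts, which nothing ties to samples. ESR1 loops occurred in each part, with 16, 5, 20 and 21 loops and 74, 25, 94 and 106 read pairs, which is 27.5, 27.7, 39.3 and 24.0 per 100000 read pairs of the part. The loop with 35 read pairs occurred in all 4 parts, with 6, 6, 13 and 10. In all, 2 loops occurred in 4 parts, 8 in 3, 7 in 2 and 16 in 1, and the last held 58 of the 299 read pairs. Leaving out each part in turn kept the main start region between 68.8% and 72.9% of ESR1 read pairs.

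Partner positions were then compared between lines. Of 32 ESR1 loops in T-47D, 13 (40.6%, 25.5 to 57.7) had a partner that overlapped the partner of an Ishikawa ESR1 loop by 1 bp or more, and of 33 in Ishikawa, 10 (30.3%, 17.4 to 47.3) had one in T-47D. When the ESR1 anchor had to match as well, 7 T-47D loops (21.9%, 11.0 to 38.8) and 5 Ishikawa loops (15.2%, 6.65 to 30.9) remained. Over all loops, both anchors matched for 9.93% of T-47D loops and 2.2% of Ishikawa loops. When each partner anchor had to overlap the other by 50%, 2 T-47D loops were matched, beside median anchor widths of 2.61 kb in T-47D and 5.10 kb in Ishikawa.

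Among the matches, the partner of the strongest T-47D loop (152001260) and that at 151995846 both overlapped the strongest Ishikawa partner. The partner at 151989285 overlapped the Ishikawa partner at 151988786, and the intergenic partner at 151953736 overlapped that at 151954666. In Ishikawa the last held 3 read pairs to the first start region, against 8, 10 and 3 to 3 start regions in T-47D. A T-47D partner at 152219871, with 3 read pairs, overlapped an Ishikawa partner at 152221212 with 9 and 7. The T-47D partner at 152134509 was matched only because it lies in the wide Ishikawa anchor over the main start region, itself a partner of the second. Over all its loops, the T-47D partner with the most read pairs was that at 151979979, with 25, and no Ishikawa anchor lay there.

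Of 16 distal partners in T-47D, 10 (62.5%, 38.6 to 81.5) overlapped an Ishikawa anchor of any loop, beside 50.3% of all T-47D anchors, and 6 were ESR1 partners there. Of 21 in Ishikawa, 4 (19.0%, 7.67 to 40.0) overlapped a T-47D anchor, beside 10.2% of all Ishikawa anchors, and all 4 were ESR1 partners in T-47D. Both intervals include the value over all anchors. Compared with LNCaP, 2 of the 32 T-47D loops (6.25%, 1.73 to 20.1) had both anchors matched, against 38.9% of all T-47D loops. Of the 16 distal partners, 3 (18.8%, 6.59 to 43.0) overlapped a LNCaP anchor, against 61.1% of all T-47D anchors. Both values lie below those over the list. LNCaP had only 2 ESR1 loops, both from the second start region, which limited the first value. That value therefore restates the low LNCaP loop count. The 2 matched loops were the intron at 152036336 (11 read pairs in T-47D, 5 in LNCaP) and the shared promoter of RMND1 and ARMT1 (3 in each).

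Among the neighbours of ESR1, the 10 protein-coding genes with a start site within 1 Mb, 4 were joined to it in T-47D. RMND1, which is needed for mitochondrial translation, and ARMT1, an acidic residue methyltransferase, start next to each other 355 kb upstream and share an anchor. It was joined to the first, second and main start regions with 4, 3 and 5 read pairs in T-47D. CCDC170, which codes for a coiled-coil protein and is the nearest gene upstream, had an anchor over 1 of its start sites joined to the first and second start regions with 3 and 5 read pairs. ZBTB2, a zinc finger transcription factor, was joined to the main start region with 4. In total, 6 T-47D loops with 24 read pairs joined ESR1 to a neighbour, and none held 10 or more.

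In Ishikawa, 2 such loops with 11 read pairs were found, from the main start region to RMND1 with 8 and to CCDC170 with 3. The single LNCaP loop was that to RMND1 and ARMT1 with 3 read pairs. Besides direct contact, ESR1 and its neighbours were joined to common anchors. CCDC170 had 5 partner anchors in common with ESR1 in T-47D and 2 in Ishikawa, and RMND1 had 5 and 2. SYNE1, the nesprin gene on the downstream side, had 72 read pairs in its promoter loops in Ishikawa, 3 anchors in common with ESR1 there, and had no promoter loop in T-47D or LNCaP. Ishikawa anchors over exons of SYNE1 at 152457282 and 152597411 were joined to the main start region of ESR1 with 6 and 4 read pairs. In T-47D, an intron of SYNE1 at 152491686 was joined to the second start region with 3.

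The promoter loops of the neighbours did not all follow one pattern. ARMT1 had 37 read pairs in T-47D against 19 in Ishikawa, a share 5.77 times as high in T-47D (3.23 to 10.6), and ZBTB2 had 15 and 18, 2.47 times as high (1.16 to 5.19). RMND1 had 37 and 119, a ratio of 0.921 (0.619 to 1.34), and CCDC170 had 44 and 81, a ratio of 1.61 (1.09 to 2.35). PLEKHG1 had 194 read pairs in Ishikawa and was at 0 in T-47D, 21.8-fold lower with the 0 counted as 3. AKAP12, a kinase anchoring protein gene, had 9 in Ishikawa and 26 in LNCaP, and MTHFD1L, of mitochondrial folate metabolism, had 40 in LNCaP only. MYCT1 and VIP were at 0 in all 3 lists. Loops with both anchors within 1 Mb of the gene numbered 27.9 per Mb in T-47D and 86.9 in Ishikawa. All loops of chromosome 6 numbered 12.5 and 46.9 per Mb. In LNCaP they numbered 22.6 per Mb beside 54.4.

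Genes that work with the receptor were read from a list of 28, of which 27 had a promoter loop in T-47D or Ishikawa. Their share was at least 2-fold higher in T-47D for 17 (63.0%), at least 2-fold lower for 6 (22.2%) and in between for 3, beside 54.3% (50.8% counting only genes with a T-47D loop, as all 17 had) and 23.0% over all genes. XBP1, at 0 in T-47D, could not be placed. GPER1 and CARM1, also at 0 there, were counted as lower with the 0 taken as 3. The median log2 ratio of the list was 2.04, against 1.44 over all genes. The list was chosen with earlier results of these data known, so these comparisons are a description. Roles within the list differed in their values, which are given without a test.

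Of the factors that open chromatin or bind beside the receptor, 4 of 5 were at least 2-fold higher in T-47D (54.3% over all genes). FOXA1, the forkhead pioneer factor, had 908 read pairs in T-47D against 0 in Ishikawa, and 6348 in LNCaP. With the 0 counted as the minimum number of read pairs, its share was 896-fold higher in T-47D than in Ishikawa. GATA3, a luminal lineage factor, had 1063, 7 and 0, 450 times as high (218 to 1121). TFAP2C and MYB had 77 and 31 read pairs in T-47D against 10 and 9 in Ishikawa. XBP1 was at 0 in T-47D against 14, 1.58-fold lower with the 0 counted as that minimum. Of the receptors, ESR2, the gene of estrogen receptor beta, had 36 and 10 read pairs, 10.7 times as high in T-47D (5.18 to 24.1). GPER1, the membrane estrogen receptor gene, was at 0 in T-47D against 69 in Ishikawa, 7.77-fold lower with the 0 counted as that minimum.

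Of the coactivators, 2 of 7 were at least 2-fold higher in T-47D and 4 at least 2-fold lower, with EP300 and CARM1 near that cut. Over all genes, these shares were 54.3% and 23.0%. CREBBP, the histone acetyltransferase that deposits H3K27ac together with EP300, had 3 read pairs in T-47D against 130 in Ishikawa, 14.6 times as high in Ishikawa (4.90 to 71.9). NCOA1 had 3 and 42, 4.73 times as high in Ishikawa (1.51 to 23.8), and EP300 and CARM1 were also lower in T-47D. NCOA3, the steroid receptor coactivator amplified in some breast cancers, had 65 and 27, 7.13 times as high in T-47D (4.49 to 11.6), and MED1, of the Mediator complex, had 31 and 29. Of the corepressors, 4 of 5 were at least 2-fold higher in T-47D (54.3% over all genes). NRIP1 had 43 read pairs against 0 in Ishikawa, 42.5-fold higher with the 0 counted as 3, and SIN3A had 69 against 13. NCOR1 was the exception, with 3 read pairs in T-47D against 78 in Ishikawa, and 633 in LNCaP, 8.78 times as high in Ishikawa as in T-47D (2.90 to 43.5).

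Both chaperone genes of the unliganded receptor were higher in T-47D, HSP90AA1 with 160 read pairs against 25 and HSP90AB1 with 131 against 9. Of 7 target genes, 4 were at least 2-fold higher in T-47D, none was 2-fold lower, 2 lay in between and TFF1 had no promoter loop in either list. The 4 are 66.7% of the targets with a promoter loop, beside 54.3% over all genes. PGR, the progesterone receptor gene, had 517 read pairs in T-47D against 3 in Ishikawa, 510 times as high (174 to 2483). GREB1, a receptor cofactor, had 615 and 124, and CCND1, the cyclin D1 gene, had 420 and 82, 14.7 and 15.2 times as high. IGFBP4, which binds insulin-like growth factors, had 172 and 180. TGFA, a growth factor gene, had 26 read pairs in T-47D against 123 in Ishikawa, a ratio of 0.626 (0.393 to 0.962).

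**Figure D4:**
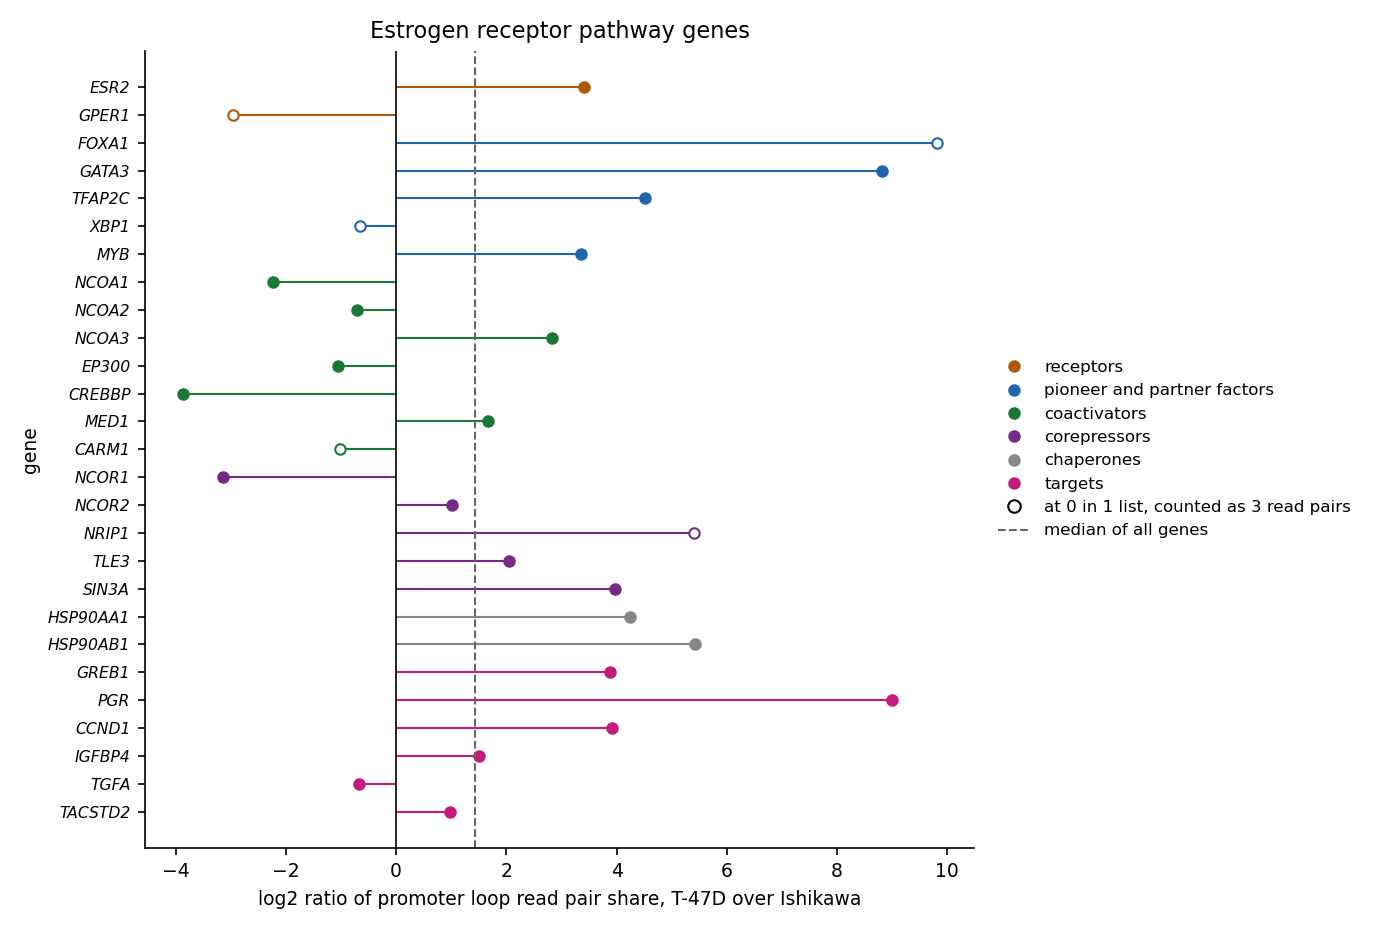
Log2 ratio of promoter loop read pair share, T-47D over Ishikawa (horizontal axis), for the 27 estrogen receptor pathway genes with a promoter loop in either list, coloured by role; open points are genes at 0 in 1 list, counted as 3 read pairs there, and the dashed line is the median of all genes (1.44). FOXA1 lies highest at 9.81, whereas 4 of 7 coactivators lie at -1.02 or below.

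Each of 9 lineage genes had its highest share in the list of its own line. These genes were chosen with earlier results of these data known, so they are no independent check of the labels. The genes with a pattern most like ESR1 were MYOF, a membrane repair gene, with 247, 335 and 6 read pairs in the breast, endometrial and prostate lists, AMOTL2, an angiomotin family gene, with 268, 312 and 0, and AOPEP, an aminopeptidase gene, with 259, 207 and 18. Their distances from ESR1 over the 3 lists, in log2 of read pairs per 100000 plus 1, were 0.389, 0.698 and 0.801. No other protein-coding gene had a start site in an anchor over ESR1.

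Motif letters were compared in the 500 bp windows around start sites. No ESR1 window held the estrogen response element, which occurred in 0.0519% of 146307 promoter windows of protein-coding genes. The window of the second start region held 1 forkhead motif, found in 4.61% of promoter windows, and 1 GGTCA core, found in 54.6%. The canonical window held 2 GGTCA cores, 1 TFAP2 motif (34.1% of windows) and 1 SP/KLF motif (51.1%). AP-1 (9.62%) was matched in no ESR1 window, GATA factor (15.1%) in that of the fifth start region, and the window of the first start region held none of the 7. G and C made up 36.2%, 38.4% and 63.4% of the first, second and canonical windows.

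Neither the anchors over ESR1 nor their partners held a full estrogen response element in any list. The element is rare at this width: among windows of the same width tiled over chromosome 6, the share with an element was 0.157% on average for T-47D partners and 0.452% for Ishikawa partners. Partners in T-47D held 1.86 GGTCA cores per kb, beside 1.65 over all T-47D anchors on the chromosome, and 0.199 forkhead motifs per kb, beside 0.173. Partners in Ishikawa held 1.61 GGTCA cores per kb beside 1.57, and 0.139 forkhead motifs beside 0.168.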

How the data were processed

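HiChIP for H3K27ac was read from 1 loop list per cell line. The authors aligned reads to hg19 with HiC-Pro, called loops with hichipper, removed those under 3 reads or above a false discovery rate limit and combined samples. Tool versions are not given in the sources used here. The deposited value is a count of read pairs per anchor pair, not scaled for depth (over all loops T-47D had 351260, Ishikawa 1040329 and LNCaP 1805322). Repeated Ishikawa pairs were summed over the 4 parts, self pairs were left out, and positions count from 1. Start sites came from GENCODE 44 lifted to GRCh37. Lists were compared as shares of read pairs, with a gene under 3 read pairs counted as 3, by Python 3.11.15, pandas 2.3.3 and scipy 1.17.1. Intervals are 95% Wilson for shares, exact Poisson for counts and exact conditional binomial for ratios. Named loops are all loops of a list with up to 15, otherwise the 10 with most read pairs, and matched partners. Named genes are the largest and smallest ratios of each list of roles, neighbours and the 3 nearest patterns. Members and lists were chosen with earlier results of these data known. An item of the pathway list and a sequence are not reported here. The counting was tested on simulated data. Alternatives were minima of 5 and 10 read pairs, windows of 2000 bp, 1 start site per gene, spans of 20 kb to 1 Mb, handling of the Ishikawa parts and other overlap rules. Those for shares by start region, neighbours and motifs were added after the data were seen.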

Additional observations from a re-analysis of the deposited data

Results flagged for a closer look

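Read pairs that joined an anchor over ESR1 to itself lie outside the loops and, for the anchors below, numbered above the minimum of 3. In T-47D the anchor over the second start region had 30 of them and that over the main start region 14. In Ishikawa the anchor over the main start region had 89, more than 99.6% of Ishikawa anchors with such pairs, and that over the second start region 11. The LNCaP list held no such pairs for any anchor.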

How the results depend on the processing

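The shares of the second and main start regions kept their order in T-47D and in Ishikawa under the alternatives run for these lists except 1 start site per gene, which leaves only the main one, and the 17 pathway genes higher in T-47D stayed between 14 and 18. The read pair share of ESR1 in T-47D over Ishikawa reversed to 0.737 with 1 start site per gene and to 0.844 at a minimum of 10 read pairs. It was 1.47 at a minimum of 5, 1.53 with Ishikawa loops in 2 or more parts, 1.50 for spans of 20 kb to 1 Mb, and 1.72 to 2.17 when each part was left out. The first follows from leaving out the upstream start regions. The cause of the others was not tested.

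ESR1 loops in T-47D, Ishikawa and LNCaP numbered 17, 19 and 1 at a minimum of 5 read pairs and 6, 12 and 0 at a minimum of 10. With 1 start site per gene they numbered 10, 22 and 0. Ishikawa loops in 2 or more parts numbered 17, and 27 to 33 were left without each part. T-47D loops with a matching partner in Ishikawa fell from 13 to 5 and 3 at minima of 5 and 10, to 2 with 1 start site per gene or with 50% overlap, and to 6 for spans of 20 kb to 1 Mb, and numbered 10 to 13 without each part. The median T-47D distance was 38.2 kb, 23.7 kb and 161 kb at minima of 5 and 10 and with 1 start site. Loops from ESR1 to neighbouring genes in T-47D numbered 2, 0 and 2 in the same settings. A window of 2000 bp changed none of these, nor the 0 start sites with an estrogen response element.

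No paired analysis was possible because each list pools its samples. Limits are the single list per line, the minimum of 3 read pairs, near which many ESR1 loops stood, and anchors that are wider in Ishikawa.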
